A study of Mus musculus with 18 samples.

Results

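The pylorus was compared with the adjoining stomach in mouse embryos at E14.5. The pylorus is the segment where stomach passes into duodenum and where the sphincter muscle forms. The comparison rests on 6 of the 18 arrays of the study, which are the 3 labelled pylorus at E14.5 and the 3 labelled stomach at E14.5. The study hybridized total RNA of antral stomach, pylorus and duodenum from C57Bl/6J embryos of E14.5 and E16.5 to Affymetrix arrays, to compare gene expression among the 3 tissues at both ages. The embryos carried no named mutation and received no named treatment. The labels give the stomach as antrum, the tissue closest to the pylorus, and give the 3 tissues as contiguous pieces. Tissue of 174 embryos at E14.5 and of 95 at E16.5 was dissected and placed at random into 3 pools for each tissue and age, so p-values measure the spread between pools and not between embryos. Where the cuts fell between the tissues is not given in the sources used here. Duodenal pools of E14.5 are given below as levels for orientation, and the E16.5 pools of pylorus and stomach enter where the ages are compared.

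The gut tube at this stage is a layer of epithelium inside a thick mesenchyme. Cdx2 directs the epithelium of the intestine, and Sox2 marks the epithelium of the foregut and stomach. The mesenchyme under the stomach carries Barx1, which restrains Wnt signalling there, and the mesenchyme of the future pyloric sphincter carries Nkx2-5, Gata3 and Sox9. A sample of this region therefore holds the edge of an epithelial boundary together with the mesenchyme that forms the sphincter.

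The values are log2 intensities, in which 1 unit is 2-fold. The median of the 6 arrays lay between 6.89 and 6.92. Calls rest on the limma p-value, adjusted over the 18193 genes tested, which had to lie under 0.05. Differences are given ± SE, and positive differences mean more in pylorus. Pyloric replicate 1 stood apart from the others. Over probe sets with a mean above log2 8, its values differed from those of replicates 2 and 3 with an SD of 0.48 and 0.435, against 0.174 between replicates 2 and 3 and 0.174 to 0.236 between stomach pools. Counts and called genes at E14.5 are therefore given with and without it, and a lone value in parentheses after a difference is that without it. The spread is estimated from 17 samples of all 6 groups, with duodenal replicates 1 and 2 of E14.5 averaged, as their SD of 0.08 fell outside the range of other replicate pairs (0.174 to 0.485). Each gene has 1 such spread, shared by all groups, although pyloric pools were often further apart than stomach pools. For lipid absorption genes the median SD was 1.18 between pyloric pools and 0.18 between stomach pools. For such genes the SE and adjusted p can understate the pyloric spread. Precision is limited by how few arrays there are, and no depth or detection call was used.

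At E14.5, 649 genes (3.57% of those tested) were called between pylorus and stomach, 377 higher in pylorus (2.07%) and 272 lower (1.5%). Without pyloric replicate 1 the numbers were 573 (3.15%), 398 higher (2.19%) and 175 lower (0.962%). Both fits shared 259 higher and 162 lower calls, so 118 of the higher and 110 of the lower calls were not made without that pool, and 139 higher and 13 lower calls were made only without it. Differences of 2-fold or more numbered 192 higher and 90 lower, and 192 and 54 without replicate 1. Those of 4-fold or more numbered 90 higher and 12 lower, and 62 and 6 without replicate 1. In the comparison of pylorus minus stomach at E14.5, 351, 375 and 402 genes were called without stomach replicate 1, 2 or 3, and 791 and 443 without pyloric replicate 2 or 3. Across the 6 fits that each left out 1 pool of the comparison, 298 genes were called every time, 176 of them higher and 122 lower. The median difference over all genes was -0.02. The pools of the 2 tissues did not overlap in any of the 649 called genes, so absent overlap adds nothing to a call. Over all genes, the pyloric pools were all above the stomach pools for 11.3% and all below for 12.2%. Counts of gene lists below stand beside the shares of 2.07% higher and 1.5% lower, or 2.19% and 0.962% without pyloric replicate 1.

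The 12 largest rises ran from 4.08 to 5.47 and the 12 largest falls from -3.77 to -2.04. The rises were Cps1, Cdh17, Lgals2, Fabp1, Dmbt1, Fabp2, B4galnt2, Lypd8, Aadac, S100g, Isx and Clrn3. Cps1, the first enzyme of the urea cycle, stood at 5.17, 6.64 and 6.76 in stomach and at 13.43, 9.97 and 11.57 in pylorus (5.47 ± 0.71, and 4.58 without replicate 1). The adhesion molecule Cdh17 of the intestinal epithelium stood at 6.53, 6.35 and 6.52 against 12.56, 10.93 and 11.50 (5.20 ± 0.39, and 4.75). Replicate 1 was the highest pyloric pool for both and every pyloric pool was above stomach. All 12 were called without replicate 1, and Aadac, an esterase, was the one that lost its call without another pool, stomach replicate 1 (adjusted p = 0.053). The falls were Cxcl15, Aqp4, Cym, Gsdmc2, Bpifb1, Pga5, Myo16, Kcnj15, Esrrg, Cpn1, Abi3bp and Pla2g10. Aqp4, a water channel of the acid-secreting mucosa, stood at 9.01, 9.22 and 9.01 in stomach and at 5.58, 5.80 and 5.87 in pylorus (-3.33 ± 0.13, and -3.25 without replicate 1). Its pools lay within narrow bands on both sides. The probe sets of B4galnt2 gave differences from -0.19 to 4.40 and those of Esrrg from -2.24 to 0.20, so these genes depend on the probe set read. Of the 48 named called genes with several probe sets, 6 had probe sets of opposite sign, which were these genes with Fgfr3, Nr5a2, Pla2g1b and Sh3bgr. In others the size varied, from 1.5 to 3.73 for Cdx2, from -1.56 to -0.40 for Wnt5a, from -0.74 to -0.05 for Dkk1, from -1.40 to -0.08 for Lgr5, from -0.92 to -0.01 for Fbln1 and from 0.06 to 1.05 for Ptprc.

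The labels were checked against marker genes first. All 3 pyloric pools held the sphincter markers Nkx2-5, Gata3 and Grem1 above every stomach and duodenal pool, and held the intestinal marker Cdx2 near its duodenal level. They held the stomach mesenchyme markers Barx1 and Six2 well above the duodenal pools. Isl1, chosen as a stomach marker, was also above the duodenal pools, but it acts in sphincter formation too and so does not mark stomach alone. Barx1 stood at 11.06, 12.08 and 12.03 in pyloric replicates 1, 2 and 3, at 12.63, 12.32 and 12.45 in the stomach pools, and at 8.39 and 8.58 in the duodenal samples. Other markers chosen for this check were less clear. Sox9 stood at 9.07, 9.65 and 9.83 in pylorus, at 9.47, 9.60 and 9.57 in stomach and at 9.61 and 9.77 in duodenum. Sox2 stood at 8.66, 10.77 and 10.65 in pylorus, so replicate 1 was below the duodenal samples at 8.86 and 8.98. Cdx1 and Cldn18 were not called with all pools. The pyloric label thus goes with several markers of sphincter, stomach and intestine in the same pools, and not with all of them. As each pool is a piece of whole tissue, fewer cells of a type and less RNA per cell cannot be told apart in any value below.

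Transcription factors of the intestinal epithelium were higher in pylorus for 11 of the genes measured. The list's median SD between pyloric pools was 0.32, against 1.18 for lipid absorption genes, 0.78 for brush border genes, 0.66 for transporters, 0.316 for all genes called higher and 0.142 for all genes. Of the 24 measured, 11 were called higher than in stomach and 1 lower, where 2.07% and 1.5% of all genes were, with a median difference of 0.64 against -0.02 over all genes, and 10 higher and 1 lower without pyloric replicate 1 (median 0.69). Cdx2 stood at 5.82, 6.13 and 6.31 in stomach and at 10.17, 9.47 and 9.81 in pylorus, a difference of 3.73 ± 0.24 (adjusted p = 2.95e-07), and 3.55 without replicate 1. The pyloric pools lay close together and far above every stomach pool. Isx, an intestinal homeobox factor that controls vitamin A handling, stood at 6.03, 5.96 and 5.95 in stomach and at 10.52, 9.68 and 10.09 in pylorus, a difference of 4.12 ± 0.21 (3.91 without replicate 1). Onecut2, a factor of the duodenal epithelium, stood at 8.01, 7.82 and 7.72 against 11.39, 10.91 and 11.54 (3.43 ± 0.18, and 3.38 without replicate 1). Neither gene had overlapping pools, and both had adjusted p = 3.36e-08.

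Other factors of the list followed at smaller differences. Prdm1, a repressor that holds the fetal intestinal epithelium in its immature state, was higher by 2.88 ± 0.35 (2.42 without replicate 1), and the bile acid receptor Nr1h4 by 2.39 ± 0.34 (1.93). The nuclear receptor Hnf4a was higher by 1.13 ± 0.16, and by 0.91 without replicate 1. Pdx1, a homeobox factor of antrum, duodenum and pancreas, was higher by 0.95 ± 0.15 (1.0 without replicate 1). Its stomach pools stood at 8.10, 8.21 and 8.52 and its pyloric pools at 9.13, 9.18 and 9.38, so the gap between the tissues exceeded the spread within either. Gata4, a factor of the anterior gut epithelium, was the list's lower gene at -0.58 ± 0.12 (-0.61 without replicate 1), and its call was lost without stomach replicate 3 (-0.53, adjusted p = 0.061).

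Cdx1, the second caudal factor of the intestine, was not called. It stood at 4.77, 4.99 and 4.66 in stomach and at 8.54, 5.54 and 6.07 in pylorus, with replicate 1 far above the other pyloric pools. Its difference was 1.91 ± 0.56 (adjusted p = 0.0761), and 1.0 without that pool (adjusted p = 0.146). Klf5, Elf3 and Gata6, factors of the epithelium in stomach and intestine alike, were not called in either fit (0.06 ± 0.11, 0.25 ± 0.13 and -0.06 ± 0.11).

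**Figure D1:**
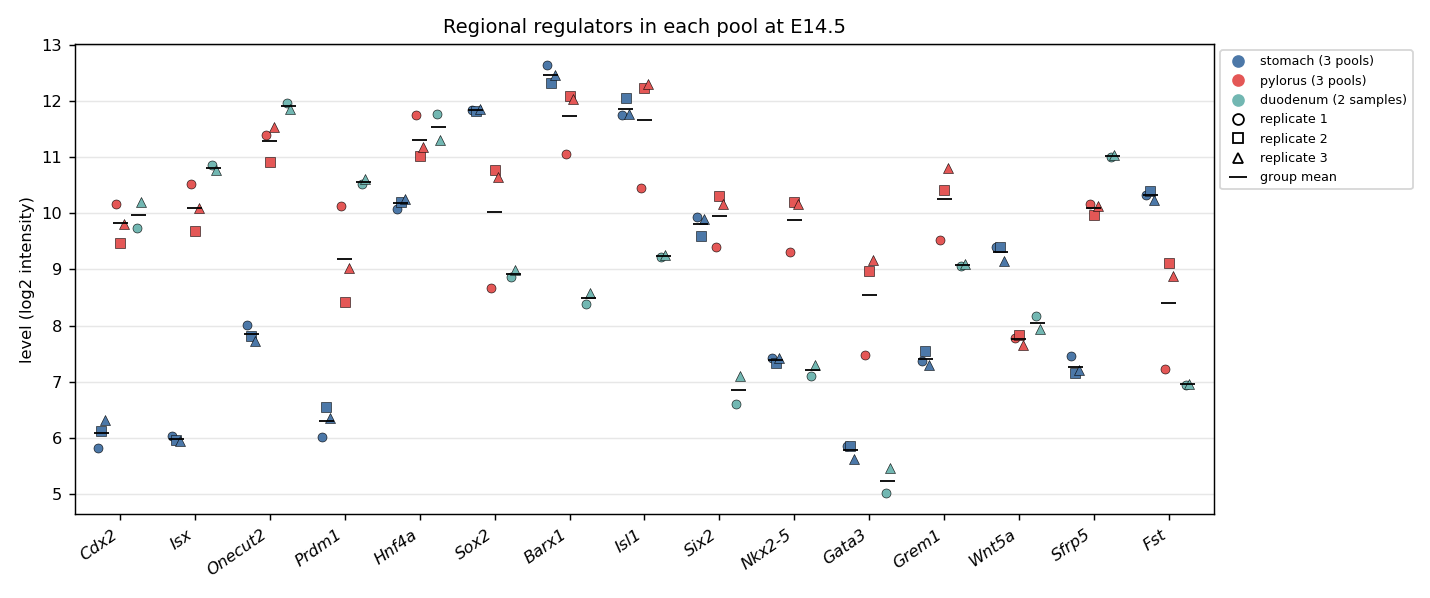
Log2 intensity (vertical axis) of 15 regulators and signals in each pool at E14.5, with stomach, pylorus and duodenum in separate colours, a symbol for each replicate and a bar for the group mean. Duodenal replicates 1 and 2 are averaged and drawn as a circle. The 3 pyloric pools of Cdx2, Isx and Onecut2 lie above every stomach pool, Nkx2-5, Gata3 and Grem1 are above both neighbours, and pyloric replicate 1 is the lowest pyloric pool for Sox2, Barx1, Isl1, Six2, Nkx2-5, Gata3, Grem1 and Fst.

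The largest rises were in genes of the intestinal epithelium, and short promoter windows of some of these genes are shown. Cdx2 was also higher in pylorus, and whether it acts on these genes was not tested. The 250 bases before the start were taken from RefSeq promoter sequences of build GRCm38.p6, which matched 14452 of the 18193 genes. They were searched on both strands for the Cdx motif CCATAAA or CAATAAA, the Hnf4 motif CAAAGTCCA, the Gata motif AGATAA and a palindromic Hnf1 motif. Of the 12 largest called rises, 9 had a promoter sequence and 4 of these held a Cdx motif, where 4.68% of all 14452 promoters did. The 4 were Fabp1 and Fabp2, which bind fatty acids in the enterocyte, the galectin Lgals2 and the membrane protein Clrn3. Aadac, B4galnt2, Isx, Lypd8 and S100g held no Cdx motif. Cdx motifs also lay in genes called lower, such as Fbln1 and Fgfr3, and in genes not called, such as Epcam and Emcn. None of the 9 held the Hnf4 motif. Alpi, the alkaline phosphatase of the brush border, is not among these 12 and is shown because it held one. The windows are chr6:71199629-71199878 (plus strand) for Fabp1, chr3:122894822-122895071 (plus) for Fabp2, chr15:78855530-78855779 (minus) for Lgals2, chr7:135528655-135528904 (minus) for Clrn3 and chr1:87101607-87101856 (minus) for Alpi. Capitals mark the motifs on either strand, and in Lgals2 a Gata motif comes before the Cdx motif.
Fabp1: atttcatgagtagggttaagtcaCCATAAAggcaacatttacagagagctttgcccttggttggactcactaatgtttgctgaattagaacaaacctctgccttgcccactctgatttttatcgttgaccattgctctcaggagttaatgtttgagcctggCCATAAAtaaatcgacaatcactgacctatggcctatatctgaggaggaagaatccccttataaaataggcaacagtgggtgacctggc
Fabp2: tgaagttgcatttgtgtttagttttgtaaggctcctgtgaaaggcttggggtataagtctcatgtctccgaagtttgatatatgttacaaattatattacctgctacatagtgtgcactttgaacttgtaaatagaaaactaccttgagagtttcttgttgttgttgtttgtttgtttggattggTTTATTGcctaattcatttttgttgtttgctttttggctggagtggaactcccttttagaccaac
Lgals2: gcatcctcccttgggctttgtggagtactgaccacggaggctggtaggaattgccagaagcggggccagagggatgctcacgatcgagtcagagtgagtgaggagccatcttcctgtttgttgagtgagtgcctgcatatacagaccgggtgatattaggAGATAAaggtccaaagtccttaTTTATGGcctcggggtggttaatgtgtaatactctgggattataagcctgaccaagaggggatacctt
Clrn3: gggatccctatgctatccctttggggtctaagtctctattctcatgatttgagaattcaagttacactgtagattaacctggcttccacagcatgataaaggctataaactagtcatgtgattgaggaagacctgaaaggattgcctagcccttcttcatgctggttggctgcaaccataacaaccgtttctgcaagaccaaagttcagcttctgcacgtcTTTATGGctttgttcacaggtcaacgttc
Alpi: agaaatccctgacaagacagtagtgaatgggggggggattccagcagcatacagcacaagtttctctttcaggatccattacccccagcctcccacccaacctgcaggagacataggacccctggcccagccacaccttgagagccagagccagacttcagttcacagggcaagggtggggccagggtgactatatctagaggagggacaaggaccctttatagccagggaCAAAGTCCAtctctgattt
The Cdx motifs begin 227 and 89 bases before the start in Fabp1, 65 in Fabp2, 68 in Lgals2 and 29 in Clrn3, and the Hnf4 motif of Alpi begins 19 bases before it. The motifs shown do not overlap.

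Over larger sets the motif shares were as follows. A Cdx motif lay in 4.68% of all 14452 promoters, in 7.33% of the 150 promoters of genes called higher by 2-fold or more and in 5.26% of the 57 of genes called lower by 2-fold or more. The Hnf4 motif lay in 0.401%, 2.67% (4 promoters) and 0%. The Gata motif lay in 7.47%, 16.7% (25 promoters) and 3.51%. The Hnf1 motif lay in 0.353%, 0.667% and 1.75%. Restricted to the 128 promoters of genes also called higher without pyloric replicate 1, the Cdx, Hnf4 and Gata shares were 7.81%, 2.34% and 16.4%. These shares describe letters in 1 window per gene, base composition was not matched, and a match is not a bound site.

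Lipid absorption genes were higher in pylorus, and their median SD between pyloric pools was the highest of the 32 lists described here. Of 20 genes, 8 were called higher and 0 lower, with a median difference of 1.59, and without pyloric replicate 1 the count was 5 with a median of 1.13. The mean level of the list was 7.22, 7.38 and 7.47 in stomach and 10.52, 8.22 and 9.03 in pylorus. Replicate 1 was thus the highest pool and replicate 2 the lowest, and all were above stomach. Fabp1 stood at 5.99, 7.07 and 7.01 in stomach and at 13.71, 9.55 and 11.89 in pylorus, a difference of 5.03 ± 0.90 (adjusted p = 0.00442), and of 4.03 without replicate 1 (adjusted p = 0.0134). Fabp2 stood at 6.03, 6.57 and 6.61 against 13.01, 9.61 and 11.06 (4.82 ± 0.68, and 3.93 without replicate 1). The pyloric spread of these genes covers several doublings. Their lowest pyloric pool was above their highest stomach pool, as in every gene called higher.

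Genes of lipoprotein assembly gave a mixed picture. Apob, the structural protein of chylomicrons, was higher by 3.51 ± 0.51 with all pools and by 2.82 without replicate 1, and kept its call in all 6 fits that left out a pool. Mttp, which loads lipid onto Apob, stood at 12.09, 7.93 and 9.80 in pylorus against 6.11, 6.43 and 6.50 in stomach. Its difference of 3.59 ± 0.84 (adjusted p = 0.0268) was not called without pyloric replicate 1 (2.52, adjusted p = 0.0802), without pyloric replicate 3 (adjusted p = 0.0715) or without stomach replicate 1, 2 or 3 (adjusted p = 0.11, 0.083 and 0.0756). The apolipoproteins Apoa4 and Apoc3 differed by 3.13 ± 0.96 and 3.31 ± 1.01 and were not called (adjusted p = 0.0958 and 0.0925), with pyloric pools of Apoc3 at 11.57, 6.49 and 8.80. The lowest of these was close to its stomach pools at 5.44, 5.74 and 5.74. The esterifying enzyme Dgat2 was called in both fits at 1.65 and 1.22. Apoc2, an activator of lipoprotein lipase, was called at 2.43 ± 0.54 and at 1.71 without replicate 1, and not without stomach replicate 1, 2 or 3 (adjusted p = 0.0856, 0.0589 and 0.0577).

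Brush border genes were higher in pylorus, and 6 of the 10 called genes kept their calls without pyloric replicate 1. Of 23 genes, 10 were called higher and 0 lower (median 1.28), and 6 without pyloric replicate 1 (median 0.91). Vil1, which bundles the actin of microvilli, stood at 7.50, 7.88 and 8.09 in stomach and at 11.03, 9.53 and 9.91 in pylorus, a difference of 2.33 ± 0.30 (1.90 without replicate 1). The linker Ush1c was higher by 1.93 ± 0.26 (1.57), the myosin Myo7b by 1.75 ± 0.32 (1.25), and the actin regulators Eps8l3 and Eps8 by 2.38 ± 0.45 (1.71) and 1.28 ± 0.22 (1.04). All 5 of these structural genes were called in both fits. Among the hydrolases, Alpi and the starch-digesting Mgam were called with all pools at 3.44 ± 0.82 and 2.97 ± 0.69 and not without replicate 1 (2.35 and 1.97, adjusted p = 0.0861 and 0.0609). Alpi stood at 11.30, 7.23 and 8.86 in pylorus and 5.50, 5.65 and 5.93 in stomach. Both calls were also lost without pyloric replicate 3 or any stomach pool, with adjusted p from 0.0714 to 0.116.

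The hydrolases Lct and Mme differed in where replicate 1 stood. Lct, which digests milk sugar, stood at 10.05, 5.46 and 8.0 in pylorus and at 5.33, 5.21 and 5.67 in stomach, so its pools overlapped and it was not called (2.43 ± 0.97). Mme, a peptidase of epithelium and stroma, stood at 8.02, 8.45 and 8.73 against 6.18, 6.21 and 6.22, with replicate 1 the lowest pyloric pool, and was called with it (2.20 ± 0.51) and without it (2.39, adjusted p = 0.0316). Its call was lost without pyloric replicate 2 or 3 or any stomach pool (adjusted p from 0.0515 to 0.0946). The difference between structural genes and enzymes was not tested. Mme is a hydrolase that kept its call without replicate 1, and not every brush border gene that lost its call is named here.

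Transporters for sugar, amino acids and iron were higher in pylorus. Of 28 genes, 8 were called higher and 0 lower (median 0.99), and 7 without pyloric replicate 1 (median 0.43). The sodium-glucose carrier Slc5a1 stood at 5.25, 5.45 and 5.29 in stomach and at 9.49, 7.30 and 8.07 in pylorus (2.96 ± 0.46, and 2.36 without replicate 1). The amino acid carrier Slc7a9 was higher by 3.66 ± 0.68 (2.75). The iron exporter Slc40a1 stood at 9.94, 10.28 and 10.02 in stomach against 11.85, 11.52 and 11.81 (1.65 ± 0.22, and 1.59 without replicate 1), and the copper oxidase Heph was higher by 1.23 ± 0.20 (1.06). Amn, which takes up vitamin B12, was called at 2.68 ± 0.70 with all pools and not without replicate 1 (1.70, adjusted p = 0.133). It was also not called without pyloric replicate 3 or any stomach pool (adjusted p from 0.101 to 0.147). Slc15a1, the peptide carrier, stood between 3.98 and 4.47 in all 6 pools, and the bile acid carrier Slc10a2 between 3.80 and 3.95.

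Secretory and endocrine genes of the intestine were higher in part. Of 21 goblet and Paneth cell genes, 4 were called higher in both fits and 0 lower (median 0.49, and 0.17 without replicate 1). Dmbt1, a mucosal scavenger protein, stood at 5.98, 7.53 and 7.28 in stomach and 13.35, 10.49 and 11.56 in pylorus (4.87 ± 0.61, and 4.10 without replicate 1). The goblet cell peptide Tff3 was higher by 2.82 ± 0.49 (2.06) and the mucus protein Fcgbp by 2.41 ± 0.25 (2.22). Muc13, a membrane mucin, stood at 12.39, 8.20 and 9.91 against 6.66, 6.60 and 6.85 (3.46 ± 0.75, and 2.35 without replicate 1), and its call was lost without stomach replicate 1, 2 or 3 (adjusted p = 0.0644, 0.0635 and 0.0508). The goblet mucin Muc2 and the secretory factor Atoh1 were not called (0.49 ± 0.43 and 0.68 ± 0.31), and replicate 1 was their highest pool at 6.86 and 7.25.

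Of 26 enteroendocrine genes, 3 were called higher and 0 lower, and 1 without pyloric replicate 1. The gene that stayed was Neurog3, which starts the endocrine program. It stood at 6.85, 6.77 and 7.11 in stomach and at 9.70, 8.55 and 8.99 in pylorus (2.17 ± 0.27, and 1.86 without replicate 1). The hormone Cck and the factor Neurod1 were called with all pools at 1.38 ± 0.35 and 0.94 ± 0.24 and not without replicate 1 (adjusted p = 0.142 and 0.0806). Cck was called in 1 of the 6 fits that left out a pool, that without pyloric replicate 2 (adjusted p = 0.0267), and Neurod1 in 1, that without stomach replicate 2 (adjusted p = 0.0404). Among claudins, which seal tight junctions, 3 of 20 were called higher in both fits and 0 lower. Cldn2, which forms a cation pore, stood at 5.55, 6.06 and 6.22 in stomach and at 11.71, 8.17 and 9.36 in pylorus (3.80 ± 0.67, and 2.82 without replicate 1), and Cldn8 was higher by 2.55 ± 0.26 (2.35). Cldn13 was called at 0.78 ± 0.20 and at 1.01 without replicate 1, and its call was lost without any of the other pools (adjusted p from 0.0925 to 0.181).

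**Figure D2:**
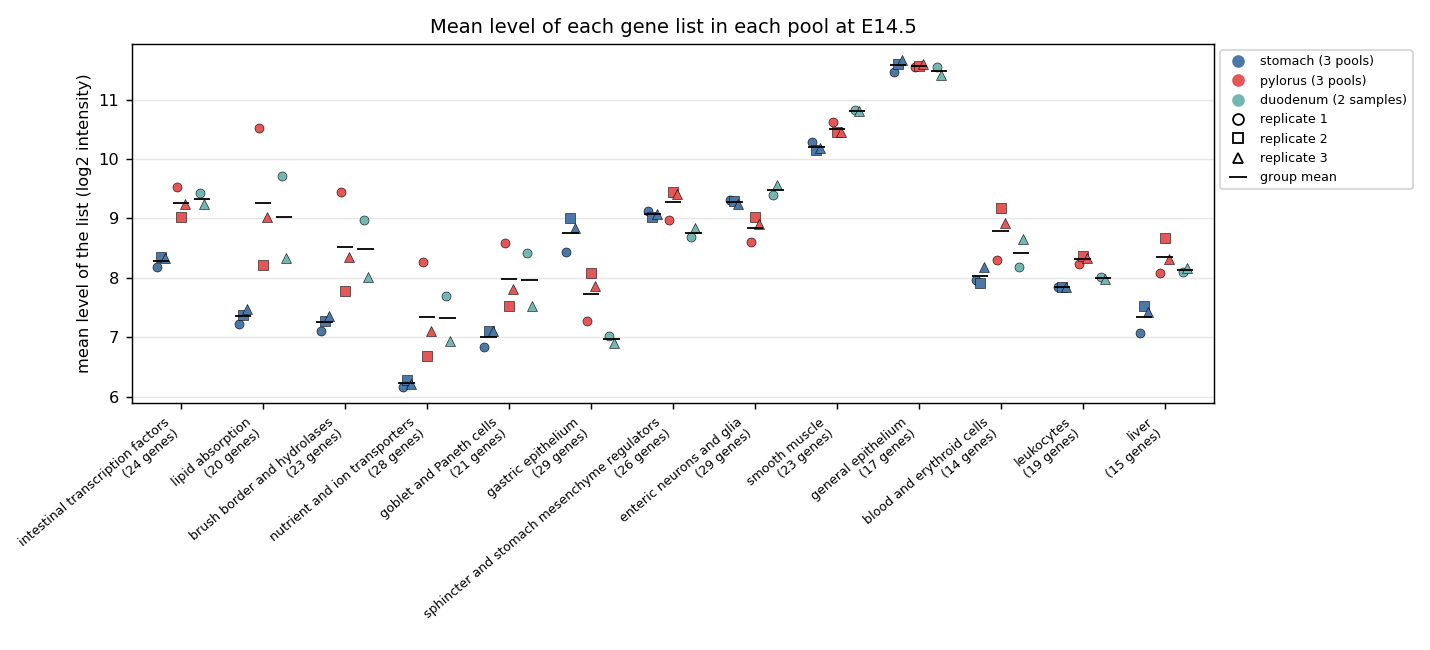
Mean log2 intensity of 13 gene lists (vertical axis) in each pool at E14.5, with colours for tissue, symbols for replicate and bars for the group mean. Duodenal replicates 1 and 2 are averaged and drawn as a circle. The pyloric pools spread most in lipid absorption, brush border and transporter genes, where replicate 1 is highest, and lie between 11.54 and 11.59 for general epithelium. In blood and liver genes replicate 2 is highest.

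The genes in which pyloric replicate 1 stood apart were often those that differ between stomach and duodenum. In replicate 1, 278 genes stood 2-fold or more above both other pyloric pools and 296 stood 2-fold or more below both. For replicates 2 and 3, the genes 2-fold or more above both others numbered 4 and 0. Of the 278 genes, 149 (53.6%) also stood 2-fold or more higher in duodenum than in stomach, a share of 1.87% among all genes. Of the 296 genes, 32.8% stood 2-fold or more lower in duodenum, against 1.41% among all genes. Among called genes the largest excess over the higher of the other pyloric pools was in Spink1, Muc13, Alpi, 9130208D14Rik, Cldn2, Aadac, Mttp, Folr1, Amn and H2-Q2. All of them were higher in pylorus than in stomach, a direction that picking called genes by this excess favours. The trypsin inhibitor Spink1 stood at 11.19, 6.97 and 8.53 in pylorus and differed from stomach by 3.04 ± 0.79 with all pools. Of the fits that left out a pool it was called only without pyloric replicate 2 (1.89, adjusted p = 0.119, without replicate 1).

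The general epithelial level of replicate 1 was close to that of the other pools. The mean of 17 epithelial genes was 11.54, 11.57 and 11.59 in the pyloric pools and 11.47, 11.60 and 11.66 in the stomach pools. Cdh1, the adhesion molecule of epithelia, stood at 12.45, 12.50 and 12.63 in pylorus. Epcam stood at 13.58, 12.81 and 12.76, so it was highest in replicate 1, and the mesenchymal gene Vim stood at 12.48, 12.95 and 13.15. None of the 3 was called. Of the 17 genes, Spint1 was called higher and Prom1 lower (0.48 ± 0.12 and -0.50 ± 0.12), and neither was called without replicate 1 (adjusted p = 0.107 and 0.12). Genes with little spread between pyloric pools included the glutathione transferases Gsta3 and Gstt2, higher by 2.04 ± 0.25 and 1.11 ± 0.16 and by 2.02 and 1.14 without replicate 1. Gsta3 stood at 8.75, 8.69 and 8.71 in pylorus and at 6.46, 6.62 and 6.95 in stomach. Serpina1b, a protease inhibitor of liver and gut, stood at 11.02, 11.06 and 10.91 against 8.38, 8.65 and 8.59 (2.46 ± 0.39, and 2.45 without replicate 1).

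**Figure D3:**
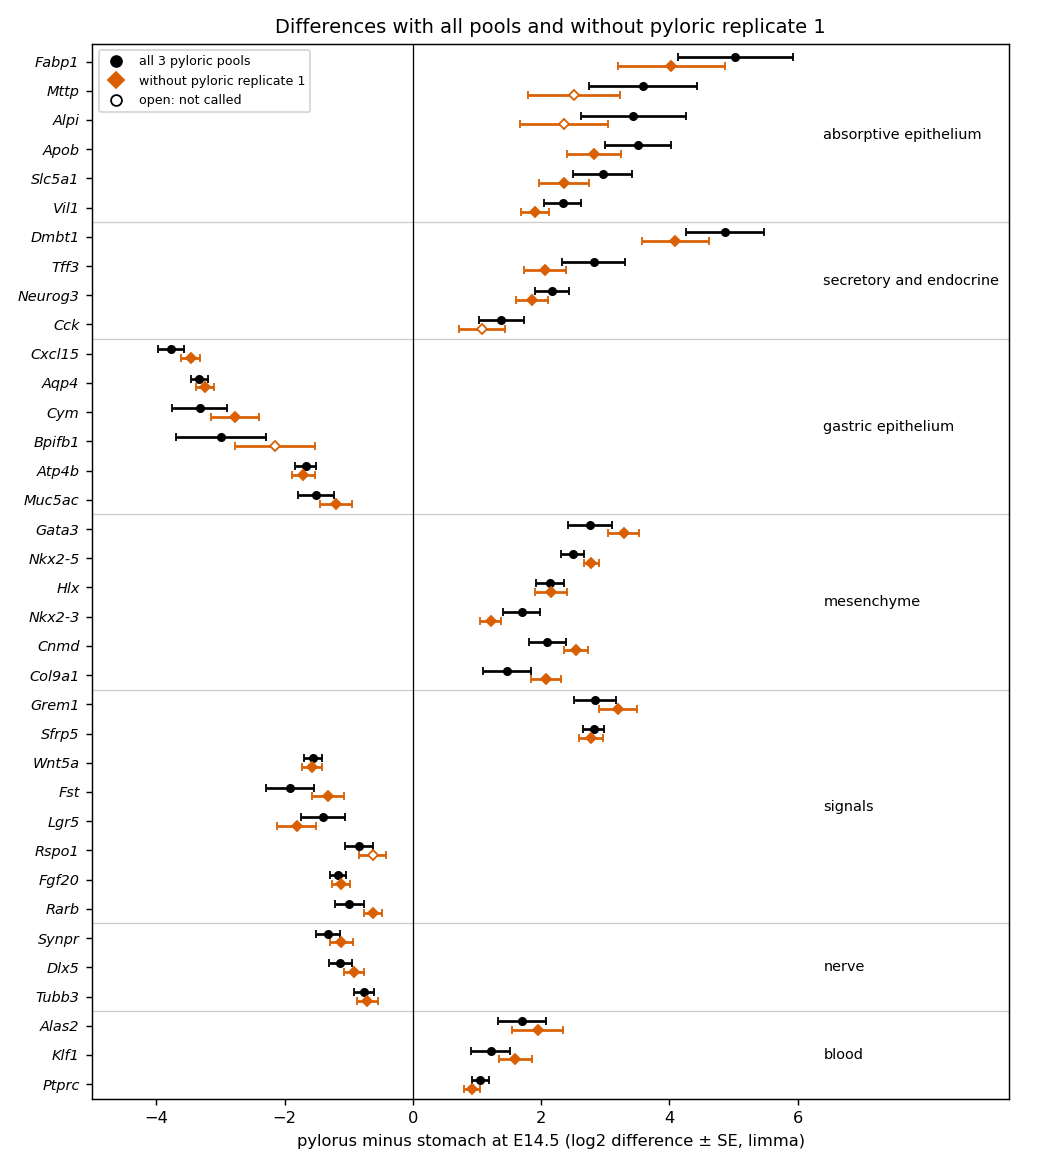
Pylorus minus stomach at E14.5 as log2 difference ± SE from limma (horizontal axis) for genes grouped by role, with all pools (circles) and without pyloric replicate 1 (diamonds). Filled symbols are called and open ones are not. Absorptive genes move toward 0 without replicate 1, Gata3, Nkx2-5, Grem1, Cnmd and Col9a1 move away from 0, and Sfrp5, Wnt5a and Atp4b barely move.

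The gastric epithelial genes that were called were lower in pylorus, and most members were not called. Of 29 genes, 0 were called higher and 8 lower (median -0.47), and 7 lower without pyloric replicate 1 (median -0.56). The chemokine Cxcl15 stood at 9.63, 9.68 and 9.65 in stomach and at 5.27, 6.16 and 6.21 in pylorus (-3.77 ± 0.20, and -3.47 without replicate 1). Cym, the milk-clotting protease of the young stomach, stood at 14.24, 14.56 and 14.24 against 9.92, 11.85 and 11.29 (-3.33 ± 0.43, and -2.78). The pepsinogen Pga5 stood at 9.01, 10.35 and 9.91 against 6.17, 7.33 and 6.91 (-2.95 ± 0.49, and -2.64). For all 3 genes every pyloric pool was below every stomach pool.

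An acid pump subunit and a surface mucin of the stomach were also lower. Atp4b, the beta subunit of the parietal cell proton pump, stood at 8.11, 8.67 and 8.31 in stomach and at 6.76, 6.72 and 6.59 in pylorus (-1.67 ± 0.16, and -1.71 without replicate 1), with close pyloric pools. The mucin Muc5ac differed by -1.51 ± 0.28 (-1.20). Bpifb1, a secreted protein of mucosal surfaces, was called with all pools (-2.99 ± 0.70) and not without pyloric replicate 1 (-2.15, adjusted p = 0.0851), stomach replicate 2 (adjusted p = 0.126) or stomach replicate 3 (adjusted p = 0.0949). Cldn18, the stomach claudin, stood at 12.46, 12.88 and 12.90 in stomach and 9.70, 11.89 and 11.41 in pylorus and was not called (-1.75 ± 0.52, adjusted p = 0.0811, and -1.10 without replicate 1). The trefoil peptides Tff1 and Tff2 and the gastrokines Gkn1, Gkn2 and Gkn3 were not called, with differences from -0.27 to 0.62.

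Sox2 was lower in pylorus, by less without replicate 1. It stood at 11.83, 11.82 and 11.85 in stomach and at 8.66, 10.77 and 10.65 in pylorus, with duodenal samples at 8.86 and 8.98. The difference was -1.81 ± 0.40 (adjusted p = 0.0189), and -1.12 without replicate 1 (adjusted p = 0.00713). It was not called without stomach replicate 1, 2 or 3 (adjusted p = 0.0716, 0.0657 and 0.0667). Replicate 1 held Sox2 at the duodenal level, and the other pyloric pools held it nearer to stomach.

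Nkx2-5 and Gata3 of the sphincter mesenchyme rose, while Sox9 and Isl1, which also act there, were not called. Of 26 mesenchymal regulators, 5 were called higher and 1 lower in both fits (median -0.02, and 0.11 without replicate 1). Nkx2-5 stood at 7.42, 7.33 and 7.43 in stomach and 9.31, 10.19 and 10.16 in pylorus, with 7.11 and 7.30 in duodenum. Its difference was 2.49 ± 0.18 (adjusted p = 9.88e-07), and 2.78 without replicate 1. Gata3 stood at 5.86, 5.85 and 5.63 in stomach and 7.48, 8.97 and 9.16 in pylorus, with 5.02 and 5.46 in duodenum (2.76 ± 0.35, and 3.29 without replicate 1). Here replicate 1 was the lowest pyloric pool, yet it was above all stomach and duodenal pools.

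Of the other called regulators, Hlx and Nkx2-3, homeobox factors of gut mesenchyme, stood near or above their pyloric level in duodenum. Hlx stood at 7.40, 7.29 and 7.35 in stomach, at 9.45, 9.41 and 9.59 in pylorus and at 9.98 and 10.03 in duodenum (2.14 ± 0.22, and 2.15 without replicate 1). Nkx2-3 was higher by 1.70 ± 0.29, and by 1.22 without replicate 1, which was its highest pyloric pool at 11.45 against 9.87 and 10.14. Hand1 was higher by 0.85 ± 0.14 (0.66), and Msc was lower at -0.49 ± 0.12. Of the fits that left out a pool, Msc was called only without pyloric replicate 1 (-0.53, adjusted p = 0.0439).

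Barx1, Six2, Isl1, Sox9 and Nkx3-2 were not called in either fit. Barx1 differed by -0.74 ± 0.23 (adjusted p = 0.101, and -0.41 without replicate 1). Six2, a stomach mesenchyme factor, stood at 9.93, 9.59 and 9.90 in stomach and 9.39, 10.30 and 10.17 in pylorus. Isl1, which acts in sphincter formation, stood at 11.75, 12.05 and 11.77 against 10.45, 12.22 and 12.30, so replicate 1 lay below and the other pyloric pools above all stomach pools. Its difference was -0.20 ± 0.33 with all pools and 0.40 without replicate 1 (adjusted p = 0.864 and 0.0999). Sox9 stood at 9.47, 9.60 and 9.57 against 9.07, 9.65 and 9.83, a difference of -0.03 ± 0.21. Since Sox9 is also found in epithelial progenitors, a level in whole tissue does not separate the layers.

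Among secreted signals, the antagonists Grem1 and Sfrp5 rose in pylorus, and the ligands Wnt5a and Fgf20 and the activin-binding Fst fell. Of 33 BMP and activin genes, 2 were called higher and 2 lower (median -0.05), beside 2.07% and 1.5% of all genes. Without pyloric replicate 1 the counts were 3 and 1. Grem1, a BMP antagonist, stood at 7.37, 7.55 and 7.30 in stomach, at 9.52, 10.41 and 10.81 in pylorus and at 9.06 and 9.09 in duodenum (2.84 ± 0.32, and 3.20 without replicate 1). Fst, which binds activin, stood at 10.32, 10.40 and 10.24 in stomach and at 7.22, 9.12 and 8.88 in pylorus (-1.91 ± 0.38, and -1.32 without replicate 1). Its duodenal samples stood at 6.95 and 6.96, next to pyloric replicate 1. Bmp7 and Smad7 were called with all pools at -0.59 ± 0.13 and 0.47 ± 0.11 and not without replicate 1 (adjusted p = 0.0617 and 0.0793). Bmp7 was also lost without pyloric replicate 3 or stomach replicate 1 or 3, and Smad7 without pyloric replicate 2 or 3 or stomach replicate 2 or 3 (adjusted p from 0.0622 to 0.151). Bmp4 was not called (0.72 ± 0.26).

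Of 43 Wnt genes, 1 was called higher and 5 lower (median -0.09), beside 2.07% and 1.5% of all genes. Without pyloric replicate 1 the counts were 1 and 3. Sfrp5, a secreted Wnt inhibitor, stood at 7.45, 7.15 and 7.20 in stomach and 10.17, 9.96 and 10.13 in pylorus, a difference of 2.82 ± 0.16 (2.78 without replicate 1). The ligand Wnt5a stood at 9.40, 9.40 and 9.14 against 7.77, 7.84 and 7.65 (-1.56 ± 0.14, and -1.57), and the inhibitor Dkk1 differed by -0.74 ± 0.12 (-0.83). For these 3 genes the pyloric pools were close to each other and replicate 1 changed the difference by 0.1 or less. Lgr5, a receptor for R-spondins, stood at 7.97, 7.90 and 8.31 against 7.50, 6.21 and 6.28 (-1.40 ± 0.34, adjusted p = 0.0355), and at -1.82 without replicate 1 (adjusted p = 0.00309), while its call was lost without any of the other pools (adjusted p from 0.083 to 0.136). The ligand Rspo1 was called with all pools (-0.84 ± 0.21) and, of the fits that left out a pool, only without pyloric replicate 2 (adjusted p = 0.0289, and 0.148 at -0.63 without replicate 1).

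FGF and retinoic acid genes held a few calls each, where 2.07% of all genes were called higher and 1.5% lower. Of 24 FGF genes, 1 was called higher and 2 lower, and 2 and 1 without pyloric replicate 1. The ligand Fgf20 stood at 6.53, 6.54 and 6.36 in stomach and 5.22, 5.41 and 5.31 in pylorus (-1.16 ± 0.13, and -1.12). The FGF-binding membrane protein Flrt3 was called at 0.83 ± 0.20 and at 1.10 without replicate 1, and its call was lost without any of the other pools (adjusted p from 0.072 to 0.123). The retinoic acid list had 19 genes, with 2 calls each way, and without replicate 1 it had 1 higher and 2 lower calls. The synthesis enzyme Aldh1a1 was higher by 1.04 ± 0.19 (0.84), with pyloric pools at 10.96, 10.43 and 10.33 above stomach pools at 9.41, 9.57 and 9.63. The receptor Rarb differed by -0.99 ± 0.23 (-0.63 without replicate 1) and was not called without stomach replicate 1, 2 or 3 (adjusted p from 0.0674 to 0.0832). Cyp26a1, which degrades retinoic acid, differed by -0.70 ± 0.15 (-0.83) and was not called without pyloric replicate 3 or stomach replicate 3 (adjusted p = 0.0671 and 0.0747).

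The Hedgehog, Notch, Hox and Eph lists held 1 call between them, where 3.57% of all genes were called. Lists this short would hold few calls at that share. In the Hedgehog list 0 of 14 were called in either fit, with Shh, the ligand of the gut epithelium, at -0.21 ± 0.19 and Ihh at -0.33 ± 0.18. In the Notch list 0 of 22 were called in either fit. Of 18 Eph receptors and ephrins 0 were called, and the receptor Epha7 was called without replicate 1 (0.72, adjusted p = 0.0121). The call was Hoxc4, 1 of 27 Hox genes, at -0.74 ± 0.16, and it was lost without replicate 1 (-0.65, adjusted p = 0.0635) and without stomach replicate 1, 2 or 3 (adjusted p from 0.0563 to 0.0699). Simulated data had these group sizes, all 18193 genes tested, independent noise and, for each gene, equal spread in all groups. A log2 change of 0.5 was called for 25.4% of 67 changed genes and a change of 1 for 88.1%, so small differences would often be missed. The simulation held no outlying pool such as pyloric replicate 1, so these shares may not carry over to the real pools.

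Cartilage and tendon genes were called in both directions. Of 21 genes, 3 were higher and 2 lower (median -0.06), and 4 and 1 without pyloric replicate 1. Cnmd, a cartilage glycoprotein, stood at 5.27, 5.48 and 5.14 in stomach, at 6.49, 7.90 and 7.79 in pylorus and at 5.27 and 5.18 in duodenum (2.10 ± 0.29, and 2.55 without replicate 1). Col9a1, a cartilage collagen, stood at 8.21, 8.16 and 8.18 in stomach and at 8.45, 10.31 and 10.20 in pylorus. Its difference was 1.47 ± 0.37 (adjusted p = 0.0425) and 2.07 without replicate 1 (adjusted p = 0.000124), and its call was lost without any of the other pools (adjusted p from 0.117 to 0.162). In both genes replicate 1 was the lowest pyloric pool, as in Gata3 and Nkx2-5. Thbs4, a matrix protein of tendon, was higher by 1.72 ± 0.20 (1.5), with duodenal samples above the pyloric ones, and Col11a1 differed by -1.17 ± 0.23 (-0.82).

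The nerve genes called were lower in pylorus. Of 29 neuronal and glial genes of the gut wall, 0 were called higher and 7 lower (median -0.50), and 1 higher (Nefm) and 3 lower without pyloric replicate 1 (median -0.34). Synpr, a synaptic vesicle protein, stood at 7.34, 7.72 and 7.57 in stomach and at 5.80, 6.53 and 6.32 in pylorus (-1.33 ± 0.19, and -1.12 without replicate 1). Dlx5 differed by -1.13 ± 0.18 (-0.92), and the neuronal tubulin Tubb3 stood at 9.89, 9.86 and 9.96 against 9.03, 9.29 and 9.10 (-0.76 ± 0.15, and -0.71). Replicate 1 was the lowest pyloric pool in all 3. The other called genes, Chrna3, Cdh19, Fabp7 and Syt1 (-0.65, -0.65, -0.62 and -0.59), were not called without replicate 1, and none was called in more than 2 of the 6 fits that left out a pool. The neural crest receptor Ret and the glial factor Sox10 were not called (-0.75 ± 0.22 and -0.53 ± 0.17). Kit, carried by the pacemaker cells of the gut and their precursors, differed by -1.01 ± 0.25 (adjusted p = 0.0317). Among the fits that left out a pool, Kit was called only without pyloric replicate 2 (-0.69 and adjusted p = 0.0891 without replicate 1). With Prkcq (-0.66 ± 0.11, and -0.59), it made 2 lower calls of 5 Cajal cell genes, and 1 without replicate 1.

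Of 23 smooth muscle genes 0 were called, and 1 was called without pyloric replicate 1. This was Pln, which regulates the calcium pump, at 1.37 (adjusted p = 0.0162) against 0.98 ± 0.33 with all pools (adjusted p = 0.133). The mean level of the list was 10.62, 10.45 and 10.45 in pylorus and 10.28, 10.15 and 10.18 in stomach. Cell division genes gave 0 calls of 23 in either fit, with list means from 11.55 to 11.70 in all 6 pools, and immediate-early and heat-shock genes gave 0 of 20. Of 24 matrix and fibroblast genes, the surface protein Thy1 was called higher (0.72 ± 0.16) and the matrix protein Fbln1 lower (-0.73 ± 0.14), both also without replicate 1. Thy1 was not called without pyloric replicate 3 or stomach replicate 1, 2 or 3 (adjusted p from 0.054 to 0.0731), and Fbln1 not without stomach replicate 1 (adjusted p = 0.0587).

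Some blood and leukocyte genes were higher in pylorus. Of 14 erythroid genes, 2 were called higher and 0 lower (median 0.84), and 6 without pyloric replicate 1 (median 1.08). Their mean level was 7.97, 7.91 and 8.19 in stomach and 8.30, 9.17 and 8.92 in pylorus, so replicate 1 was the lowest pyloric pool. Alas2, the first enzyme of heme synthesis in red cells, was higher by 1.70 ± 0.37 (1.95 without replicate 1), and its call was lost without pyloric replicate 2 or 3 or stomach replicate 1 or 2 (adjusted p from 0.0577 to 0.0984). The erythroid factor Klf1 was higher by 1.21 ± 0.30 (1.60), and its call was lost without any pool but pyloric replicate 1 (adjusted p from 0.0781 to 0.143). The globin Hbb-bh1 stood at 9.21, 11.17 and 11.22 in pylorus and 9.23, 9.55 and 9.55 in stomach and was called only without replicate 1 (1.75, adjusted p = 0.00128).

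Of 15 liver genes, 2 were called higher in both fits and 0 lower, and these were Cps1 and Serpina1b, which the fetal gut also expresses. Their list mean was 7.07, 7.52 and 7.43 in stomach and 8.09, 8.67 and 8.31 in pylorus. Alb stood at 10.52, 12.25 and 11.50 in pylorus and at 9.72, 10.72 and 10.36 in stomach, and Afp at 11.63, 13.04 and 12.54 against 10.87, 11.38 and 11.39, and neither was called (1.16 ± 0.70 and 1.19 ± 0.53). The pyloric pools of Afp were above all stomach pools, as were those of 11.3% of all genes. Of 19 leukocyte genes, 5 were called higher and 0 lower (median 0.53), and 3 higher without replicate 1 (median 0.56), with only Ptprc in both. Ptprc, the common leukocyte antigen, stood at 6.78, 6.81 and 6.83 in stomach and 8.11, 7.60 and 7.87 in pylorus (1.05 ± 0.13, and 0.93). The part of blood, liver and leukocyte RNA in the other differences was not tested. Endothelial genes gave 0 calls of 17 in either fit. Pancreas genes gave 1 of 14 in both fits, the nuclear receptor Nr5a2 at 2.02 ± 0.23 (1.78), which acts in gut epithelium as well and whose probe sets gave -0.05 to 2.28. Of 14 mesothelial and splenic genes, 2 were higher in both fits, Nkx2-5 and the mesothelial Upk3b at 0.67 ± 0.14, and Rspo1 was lower with all pools. Upk3b was not called without pyloric replicate 3 or stomach replicate 1 (adjusted p = 0.0541 and 0.089). Squamous genes gave 0 calls of 14.

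The difference between pylorus and stomach changed with age for a minority of genes. Of 18193 genes, 453 (2.49%) were called for a change of the tissue difference from E14.5 to E16.5, 281 (1.54%) toward pylorus and 172 (0.945%) toward stomach. Without pyloric replicate 1 of E14.5 the numbers were 701 (3.85%), 459 (2.52%) and 242 (1.33%). The count was lower without pyloric replicate 2 (248) or any stomach pool of E14.5 (274, 216 and 223), and without pyloric replicate 1 or 2 (299 and 209) or stomach replicate 3 (252) of E16.5. The excess toward pylorus was absent without stomach replicate 1 of E16.5 (168 toward pylorus and 170 toward stomach) and small after quantile normalization (234 and 213). Of the 377 genes higher at E14.5, 27 changed toward pylorus and 25 toward stomach, and of the 272 lower genes 13 and 8 did.

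The transporters called for a change went toward pylorus. Of 28, 10 were called toward pylorus and 0 toward stomach, and 18 without replicate 1. The median tissue difference of the list was 0.99 at E14.5 and 2.90 at E16.5. The peptide carrier Slc15a1 differed by 0.15 at E14.5 and 2.92 at E16.5 (change 2.77, adjusted p = 0.00177, and 2.89 without replicate 1), and the iron carrier Slc11a2 by 0.72 and 3.57 (change 2.85, adjusted p = 0.000415, and 3.18). Lipid absorption and brush border genes were called toward pylorus for 2 of 20 and 2 of 23, and for 7 of each list without replicate 1. The differences of Cdx2, Isx and Onecut2 changed by 0.05 ± 0.34, -0.08 ± 0.30 and 0.06 ± 0.25, and by 0.22, 0.13 and 0.11 without replicate 1, and none was called. Among single genes the largest changes toward pylorus were in Reg1, a secreted regenerating protein, Smcp, a sperm mitochondrial protein, and Pck1, an enzyme of glucose synthesis. Reg1 stood at 12.95, 13.17 and 12.58 in pylorus and at 5.87, 6.94 and 5.39 in stomach at E16.5 (change 5.12 ± 1.04, and 6.02 without replicate 1).

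Some of the largest rises of E14.5 narrowed. Dmbt1 went from 4.87 to 1.16 (change -3.71, adjusted p = 0.0341, and -2.93 without replicate 1), and its stomach pools stood at 12.32, 13.42 and 13.42 at E16.5. Lypd8, an anti-bacterial surface protein, went from 4.34 to 1.09 (change -3.25, adjusted p = 0.00433, and -2.70). Both had higher stomach pools at E16.5 than at E14.5, while their pyloric pools stood above 14 at E16.5, in data whose highest value was 15.22. These genes were picked for their large E14.5 differences, and the change subtracts those same values. The choice by itself therefore favours a narrowing. Genes below whose E14.5 difference was among the largest of all genes or of their list carry the same limit. Cxcl15, Cym, Nkx2-5, Hlx and Sfrp5 are examples.

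Gastric genes split into both directions. Of 29, 2 were called toward pylorus and 4 toward stomach in both fits. Cxcl15 went from -3.77 at E14.5 to 0.21 at E16.5 (change 3.98 ± 0.29), with pools at 8.20, 7.98 and 7.62 in stomach and 7.95, 8.24 and 8.24 in pylorus at E16.5. Cym went from -3.33 to -0.68 (change 2.64 ± 0.61, adjusted p = 0.0336). The proton pump subunits changed toward stomach. Atp4a went from -0.45 to -5.40 (change -4.95 ± 0.32), standing at 12.07, 12.40 and 13.02 in stomach and 7.03, 7.14 and 7.12 in pylorus at E16.5. Atp4b went from -1.67 to -4.49 (change -2.82 ± 0.23). The water channel Aqp4 changed toward pylorus (1.15, adjusted p = 0.00298), and the channel Kcnj15 was not called (0.21, adjusted p = 0.912). Without pyloric replicate 1 of E14.5 the changes were 3.68 for Cxcl15, 2.09 for Cym, -4.84 for Atp4a, -2.78 for Atp4b and 1.07 for Aqp4, all called.

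Squamous keratinocyte genes that changed did so toward stomach. Of 14, 0 were called between tissues at E14.5 and 9 changed toward stomach, with and without replicate 1. Krt13 stood between 6.29 and 7.13 in all 6 pools of E14.5, and at E16.5 at 12.32, 12.47 and 13.48 in stomach and 7.67, 7.51 and 6.70 in pylorus (change -5.07 ± 0.40, and -5.14 without replicate 1). Krtdap, a keratinocyte differentiation gene, stood at 9.29, 11.23 and 11.72 in stomach at E16.5 and at 5.71, 5.12 and 5.15 in pylorus (change -5.50 ± 0.57, and -5.54). Such genes are known from the forestomach, and the part of forestomach tissue in the E16.5 stomach pools was not tested.

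The mesenchymal regulators called for a change with all pools went toward stomach. Of 26 mesenchymal regulators, 0 were called toward pylorus and 3 toward stomach, beside 1.54% and 0.945% of all genes. Without replicate 1 the counts were 1 and 4, beside 2.52% and 1.33% of all genes. Nkx2-5 went from a difference of 2.49 to 1.32 (change -1.18 ± 0.25, adjusted p = 0.0246, and -1.47 without replicate 1), with E16.5 pools at 8.75, 8.49 and 8.40 in pylorus and 7.21, 7.36 and 7.12 in stomach. Hlx went from 2.14 to 0.52 (change -1.61 ± 0.31), and Hand1 from 0.85 to -0.04. Without replicate 1 the changes of Hlx and Hand1 were -1.63 and -0.71, both called. Gata3 went from 2.76 to 1.35 and its change was not called with all pools (-1.41, adjusted p = 0.153) and was called without replicate 1 (-1.94, adjusted p = 0.00321). Grem1, Sox9 and Isl1 were not called (-0.55, -0.07 and 0.21). Outside the list, Sfrp5 went from 2.82 to 1.45 (change -1.37 ± 0.23, adjusted p = 0.00424, and -1.33 without replicate 1), and Cnmd changed by -2.18 (adjusted p = 0.0089, and -2.64). The ligand Efnb2 went from -0.63 to 0.99 (change 1.63 ± 0.24, adjusted p = 0.00177, and 1.48). Nkx2-5, Hlx, Hand1, Gata3, Sfrp5, Cnmd and Efnb2 were among the largest E14.5 differences of their lists. That choice by itself favours a change toward a smaller difference.

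**Figure D4:**
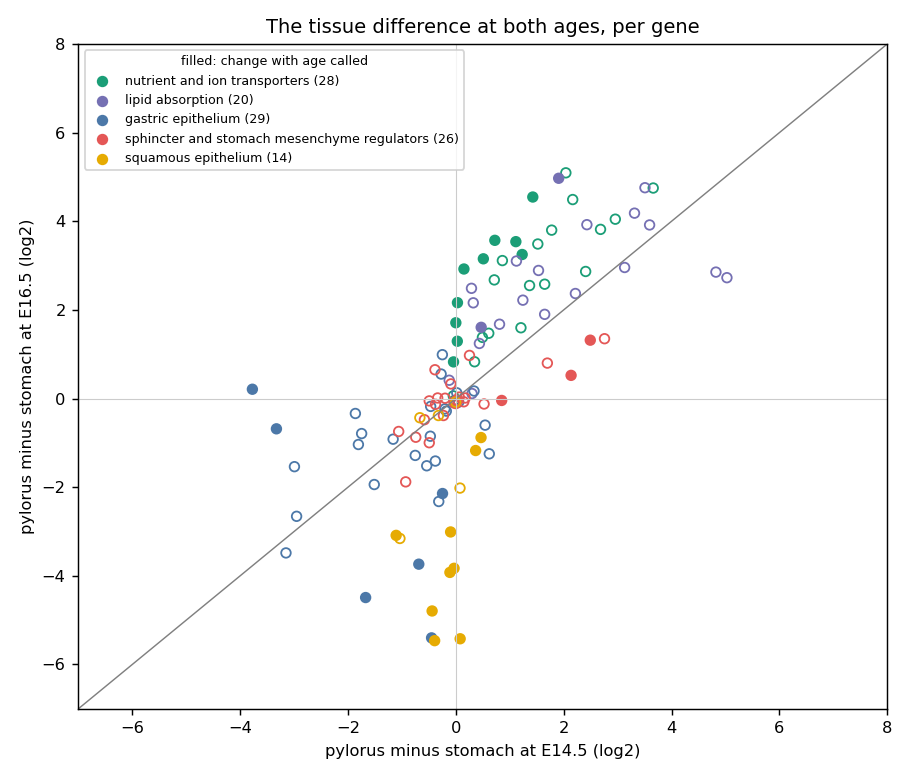
Pylorus minus stomach at E14.5 (horizontal axis, log2) against the same difference at E16.5 (vertical axis, log2) for the genes of 5 lists, with equal differences on the diagonal. Filled points are genes whose change with age was called by limma. The called transporters lie above the diagonal, the called squamous genes lie below it, and Nkx2-5, Hlx and Hand1 are the filled points of the mesenchymal list.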

How the data were processed

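Deposited values of 18 mouse arrays in 6 groups of 3 pools were used, 45101 probe sets each. The authors deposited log2 intensities. The submitters' processing notes name GCOS and RMA without a version. RMA sets all arrays to one distribution, so a shift shared by all genes cannot be seen. Of the probe sets, 34945 had 1 gene symbol, 932 several, 9160 none and 64 were controls. The probe set of highest mean stood for each of 18193 genes.

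limma 3.58.1 (R 4.3.3) was fitted to 17 samples (11 residual and 3.95 prior degrees of freedom), with Benjamini-Hochberg adjustment over all genes at 0.05, and again without pyloric replicate 1. Scripts ran in Python 3.11.15. Simulated data had equal spread in all groups and no outlying pool, unlike the real pools. In them, log2 changes of 0.5, 1 and 2 between pylorus and stomach at E14.5 were called for 25.4%, 88.1% and 100% of changed genes, and 5.33% of calls were false. For the change with age the shares were 5.97%, 68.7% and 93.9%, with 3.45% false.

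The replicate numbers did not pair the samples, since the labels give random pooling. Alternatives were probe set choice, a level filter, normalization, centring, samples in the fit, array weights, variance trend, a replicate block and leaving out pools.

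The genes, 32 lists and tests were chosen with earlier results of these data known. Genes named by rule were the 12 largest rises and falls, up to 5 called genes of each list (or the 2 of largest difference), fixed markers, the 8 largest changes with age, and the 10 genes of largest replicate 1 excess and of closest pyloric pools. Other names, and 5 further lists, were chosen after their values were seen.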

Additional observations from a re-analysis of the deposited data

Results flagged for a closer look

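The difference between pylorus and stomach was tested for a change from E14.5 to E16.5, and 453 genes were called by limma. The genes below are those of largest change, with Nkx2-5 as the fixed marker of the sphincter. The change of Nkx2-5 was -1.18, from 2.49 to 1.32, and it was -1.47 without pyloric replicate 1 of E14.5. Its E14.5 difference was among the largest of its list, which by itself favours a narrowing.

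Keratinocyte genes changed toward stomach. The change was -5.50 for Krtdap, -5.07 for Krt13, -4.50 for the epidermal protein Rptn and -4.35 for Krt4. The acid pump subunit Atp4a changed by -4.95. In each of the 5 genes all stomach pools of E16.5 stood above all pyloric pools of E16.5. The 5 genes were picked for the size of their change, and that choice by itself favours such a separation. It adds nothing to the calls, and the share of all genes separated at E16.5 is not given here.

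The changes toward pylorus among these genes were 5.12 for Reg1, 4.85 for Smcp and 4.57 for Pck1. Without pyloric replicate 1 of E14.5 the changes were 6.02, 5.01 and 4.69.

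Probe sets without a single gene symbol were outside the comparison by gene. Of 10092 such probe sets, 91 (0.902%) were called between pylorus and stomach at E14.5, adjusted over these probe sets, and they are not named here.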

How the results depend on the processing

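Of 649 genes called between pylorus and stomach at E14.5, the count was 375 with only these groups in the fit, 2592 with array weights, and 351 to 791 when 1 pool was left out. For the change with age, 453 genes were called, 1732 with array weights, and 209 to 701 when 1 pool was left out. limma gave pyloric replicate 1 a weight of 0.214 and replicates 2 and 3 weights of 2.34 and 2.04; the cause of the larger counts was not tested. With the replicate block the counts were 765 and 671, although the numbers do not pair the samples. Same-numbered pools of stomach and pylorus at E14.5 had deviations correlated at -0.013, 0.063 and -0.267 across probe sets. The other alternatives, namely probe set choice, level filter, normalization, centring, separate arrays and variance trend, gave 614 to 789 and 379 to 571 calls.

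Of 115 named genes called at E14.5, none reversed under the alternatives run for single genes. All 115 were called with array weights, 111 with centred arrays, 109 with quantile normalization, 107 with the mean of probe sets and 110 with the replicate block. Leaving out pyloric replicate 1, 2 or 3 kept 89, 102 and 84, and leaving out stomach replicate 1, 2 or 3 kept 75, 77 and 78. Intensities near background compress differences of weak genes, and no detection calls were used.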

Other observations

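Counts of 5 further gene groups between pylorus and stomach at E14.5 follow. The groups were put together after their values were seen, so their counts are descriptions and no call is read from them, beside 2.07% of all genes called higher and 1.5% lower. Of 17 genes of gastric ion transport, 0 were higher and 10 lower (median -0.98), and the same numbers held without pyloric replicate 1 (median -0.88). Their mean level was 7.80, 8.08 and 8.02 in stomach and 6.82, 7.08 and 7.02 in pylorus. They include Kcnj15, a potassium channel of parietal cells, at -2.26 (-1.74 without replicate 1), the iodide carrier Slc5a5 at -1.85 (-1.69) and the potassium channel subunit Kcne2 at -1.04 (-1.10). Of 25 innate sensor and antigen presentation genes, 11 were higher and 1 lower (median 0.68), and 11 and 0 without replicate 1. The bacterial sensors Naip2, Naip5 and Naip6 differed by 2.55, 2.52 and 2.20 (2.02, 1.82 and 1.56), and as near-identical copies they may share probes. Nlrp6, a sensor of the intestinal epithelium, differed by 2.25 (1.72).

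Of 33 cardiac and striated muscle genes, 8 were higher and 2 lower (median 0.11), and 9 and 0 without replicate 1. Mylk3, a myosin kinase of heart muscle, differed by 2.49 (1.89) and the atrial myosin light chain Myl7 by 2.11 (1.53). Myl7 stood at 6.62, 7.37 and 7.21 in stomach, at 10.35, 8.33 and 8.86 in pylorus and at 9.93 and 8.77 in duodenum, so it was not confined to the pylorus. Of 27 detoxification enzymes, 9 were higher and 3 lower (median 0.56), and 9 and 2 without replicate 1 (median 0.27). Among them were the glutathione transferase Gsta2 at 2.81 (2.17), the cytochrome Cyp2c68 at 2.64 (1.77) and Cyp2d26 at -1.45 (-1.50). Of 18 urea cycle and amino acid enzymes, 4 were higher and 2 lower in both fits (median 0.16, and 0.04 without replicate 1). Otc, the urea cycle enzyme after Cps1, differed by 3.83 (2.87) with probe sets from 0.06 to 3.83, and Gldc, which cleaves glycine, by -1.56 (-1.17).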
